A study of Mus musculus with 2 samples.

Results

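The type I interferon response genes described here are 34 mouse genes that cells switch on after type I interferon, taken by symbol from a list, out of 24014 gene symbols in the tables of the series. All 34 were in both tables, and the list was chosen with earlier results of these data known. The series holds single-cell RNA counts of bone marrow from male wild-type mice of a strain the labels spell C57B/6, made on the BD Rhapsody platform, which captures single cells in microwells with barcoded beads. One group ate normal diet (ND, chow) and the other a high-fat diet with 60% fat (HFD), both for 16 weeks, starting as young mice. Each diet had 1 library, and the sources used here name neither the number of mice behind it, nor any pooling, nor a sort. The study asked how the blood-forming cells of the marrow differ between these diets.

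With 1 library per diet there is no replicate, so no difference below carries a test, and a difference between diets cannot be told apart from a difference between these libraries. Intervals are exact 95% intervals that cover counting error of unique molecular identifiers (UMIs, the molecules counted) only. The interval of a median over members is of another kind and is described where it first appears. The ND library held 16817 cells and the HFD library 17282, with median depths of 3644 and 3625.5 UMIs per cell. After filters 13890 and 15214 cells were kept, with medians of 4480 and 4075.5 UMIs. The libraries shared 329 cell indexes, which come from a common set of bead barcodes. The kept cells formed 32 clusters, made without the interferon genes, and each took a class name from its markers. The 19 classes with at least 100 cells in both libraries were compared, and "-like" marks that a class rests on markers alone.

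Type I interferons are secreted alarm signals that bind the receptor Ifnar1/Ifnar2, which activates Jak1 and Tyk2. These kinases lead to a complex with Stat2 and Irf9 that binds the interferon-stimulated response element in promoters and turns on antiviral and regulatory genes. In bone marrow the pathway is known for its effects on blood stem cells and for a standing low activity, and plasmacytoid dendritic cells are its best known source of interferon in blood.

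The core of that response element was looked for in the members' promoters. The RefSeq promoter table of build GRCm38.p6 held 26 of the 34 members, each as 250 bases before to 50 bases after the gene's start. The motif searched was a pair of GAAA half-sites with any 2 bases between them, on either strand (TTTC half-sites when read on the other), with overlapping matches counted. It stood in 15 of the 26 members (57.7%) and in 1079 of 27025 genes of the table (3.99%). A match is a string of letters and does not show binding, and whether matches go with larger differences was not tested. Oasl2 and Slfn4, which met the rule for a higher level in 8 and 7 classes, had no match. Isg15 and Ifit1, which met it in 11 and 8, had matches. Stretches of 8 promoters are shown, from members that met the rule in as many as 11 classes (Isg15) and as few as 1 (Stat2). The others are those of Ifit1, Ifit3, Ifit3b, Oas1a, Oas3 and Slfn5. All lie upstream of the start, are written 5′ to 3′ on the gene's strand, and have the matched letters in capitals.
Isg15, chr4:156200855-156200916, minus strand: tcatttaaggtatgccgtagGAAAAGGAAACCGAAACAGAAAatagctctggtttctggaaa
Ifit1, chr19:34640765-34640833, plus strand: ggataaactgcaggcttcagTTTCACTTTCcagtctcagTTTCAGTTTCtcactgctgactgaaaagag
Ifit3, chr19:34583353-34583436, plus strand: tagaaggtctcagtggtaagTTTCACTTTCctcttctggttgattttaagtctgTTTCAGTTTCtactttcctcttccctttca
Ifit3b, chr19:34607749-34607832, plus strand: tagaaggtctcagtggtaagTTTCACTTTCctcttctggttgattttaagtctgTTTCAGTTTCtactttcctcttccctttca
Oas1a, chr5:120907526-120907565, minus strand: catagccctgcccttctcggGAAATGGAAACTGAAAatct
Oas3, chr5:120777705-120777754, minus strand: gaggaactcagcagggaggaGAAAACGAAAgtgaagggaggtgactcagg
Stat2, chr10:128270256-128270305, plus strand: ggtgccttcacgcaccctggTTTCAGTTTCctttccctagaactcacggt
Slfn5, chr11:82951927-82951976, plus strand: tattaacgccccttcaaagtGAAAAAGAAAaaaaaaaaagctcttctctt

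The Isg15 stretch held 3 overlapping matches, and the Ifit1 stretch held 2 separate ones. The stretches of Ifit3 and Ifit3b were identical over 84 bases. These genes are near-identical copies, so how the counting split reads between them is uncertain, and their values are best read together.

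In the ND library each member had its own pattern over the classes, and no class led for all of them. Levels are UMIs scaled to the UMI total of a class (CPM) and are compared between classes within a gene, not between genes. Among the regulators, Irf7, which amplifies interferon production, was highest in plasmacytoid DC-like cells at 59.7 CPM, and Stat2 and Irf9, the DNA-binding partners of the pathway, were also highest there at 239 and 154 CPM. Plasmacytoid DC-like cells led for Bst2 (tetherin, which holds budding virus at the membrane) at 827 CPM and for Trim30a, an inhibitor of innate signalling, at 362 CPM. Ifitm3, a membrane protein that blocks virus entry, was highest in patrolling monocyte-like cells at 1980 CPM, where 83.4% of cells thinned to 1000 UMIs held it, against 0.832% of B cell-like cells.

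Neutrophil and macrophage classes led for other members. Slfn4, a Schlafen family gene of myeloid cells, stood at 970 CPM in mature neutrophil-like cells and was held by 49.1% of their thinned cells, against 0.416% of B cell-like cells, which should lack it (median depths of 2814 and 2228 UMIs before thinning). Oasl2, of the 2′-5′ oligoadenylate synthetase family, was also highest in mature neutrophil-like cells at 77.8 CPM. Macrophage-like cells led for Rtp4 at 75 CPM, for Slfn5 at 255 CPM and for Ifit3, one of the IFIT proteins that bind foreign RNA, at 64.4 CPM. Classical monocyte-like cells led for Ifi27l2a at 164 CPM and for the dynamin-like antiviral Mx1 at 27.0 CPM. Ddx58, which encodes the RNA sensor RIG-I, was highest in B cell-like cells at 104 CPM. Isg20, an exonuclease that degrades RNA, was close to level between plasma cell-like cells at 152 CPM and erythroid-like cells at 149 CPM.

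**Figure D1:**
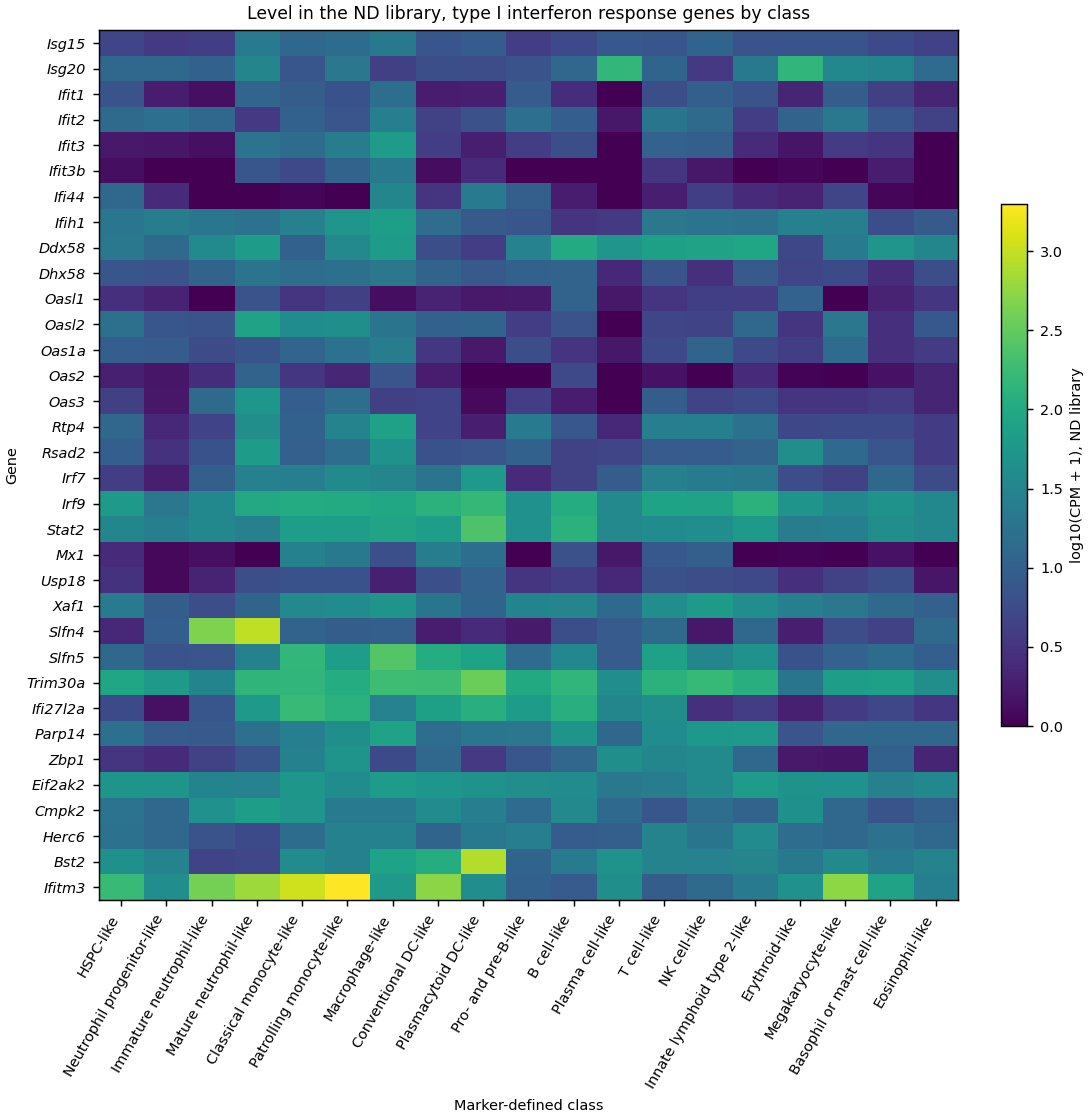
Level of each of the 34 members (rows) in the ND library for the 19 marker-defined classes (columns), coloured as log10 of CPM plus 1. Ifitm3 is brightest in patrolling monocyte-like cells (1980 CPM), Slfn4 in mature neutrophil-like cells (970 CPM) and Bst2 in plasmacytoid DC-like cells (827 CPM).

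Across classes the members stood higher in the HFD library far more often than lower. Of 646 pairs of a member and a class, 515 had at least 20 UMIs over both libraries and were compared. The HFD level was above the ND level in 414 of these pairs (80.4%). A pair was called higher or lower when the levels differed at least 1.5-fold and the interval of the log2 ratio excluded 0. By that rule 130 pairs were higher (25.2%) and 3 lower (0.583%), beside 2.69% higher and 2.48% lower over all gene and class pairs. The median log2 ratio of the members was above 0 in 18 of 19 classes, and its interval over members lay above 0 in 14. The exception was Pro- and pre-B-like cells at -0.03. Over all genes tested the class medians ran from -0.09 to 0.05. The members were compared with no filter on direction, but low members with under 20 UMIs in a class are not represented. Because the list was chosen with earlier results of these data known, these shares are not independent support for a difference.

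**Figure D2:**
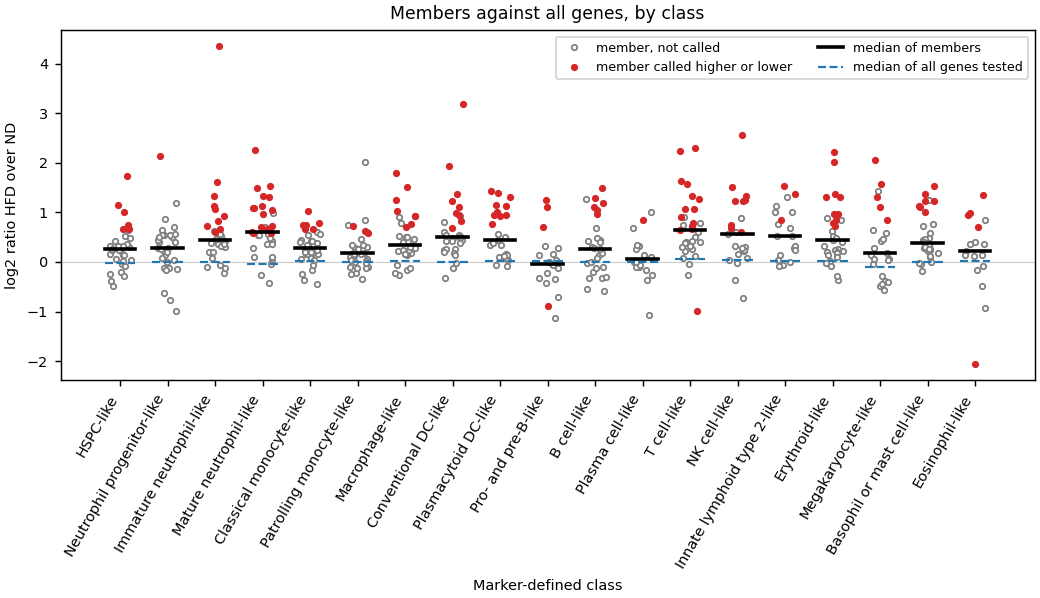
Log2 ratio of HFD over ND (vertical axis) of each member with at least 20 UMIs, as points, in each of the 19 classes, with the members' median and the median over all genes tested as short lines. The members' median is highest in T cell-like (0.65) and mature neutrophil-like cells (0.60), though conventional DC-like cells led with no cell filter (0.84), and lies below 0 only in Pro- and pre-B-like cells (-0.03).

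The number of classes in which a member was called differed between members, within roles as well as between them. Isg15, a ubiquitin-like protein conjugated to other proteins, was above its ND level in 16 of 16 classes tested and called higher in 11. Its level in ND and HFD was 6.16 and 24.98 CPM in erythroid-like cells, 8.14 and 21.4 CPM in plasmacytoid DC-like cells, and 22.2 and 45.8 CPM in mature neutrophil-like cells. In patrolling monocyte-like cells, where ND was already 13.4 CPM, HFD was 14.0 CPM and the interval of the log2 ratio ran from -0.70 to 0.86.

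Ifi27l2a, which encodes a small interferon-induced membrane protein, was above its ND level in 15 of 15 classes and called in 10, from 0.63 in patrolling monocyte-like cells to 2.13 in neutrophil progenitor-like cells on the log2 scale. Classical monocyte-like cells had its highest level in both libraries, at 164 and 238 CPM. Macrophage-like cells went from 27.9 to 96.2 CPM, which placed them near mature neutrophil-like cells at 117 CPM in the HFD library.

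Among the synthetase family, Oasl2 was called higher in 8 of 15 classes and above its ND level in all 15, Oas1a in 7 of 14, Oas2 in 3 of 8, Oas3 in 2 of 11 and Oasl1 in 3 of 7. Enzymes of this family make the 2′-5′ oligoadenylates that activate RNase L, though not every member does. The family's members share sequence, so reads may have been split between them. Of the IFIT genes, Ifit1 was called in 8 of 12 classes, Ifit3 in 3 of 11, Ifit3b in 2 of 6 and Ifit2 in 3 of 16. Rsad2, which encodes viperin, an enzyme that makes a chain-terminating nucleotide, was called in 6 of 16, and Cmpk2, its genomic neighbour, in 1 of 19. Usp18, which strips Isg15 from proteins and dampens the receptor, was called in 5 of 10.

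Among other effectors and regulators, Rtp4 was called higher in 8 of 16 classes and lower in 1, Ifi44 in 5 of 9, Isg20 in 5 of 18 and Ifitm3 in 5 of 19. Slfn4 was called higher in 7 of 15 and lower in 1, and its relative Slfn5 in 3 of 19. Xaf1, which counters an inhibitor of cell death, was called higher in 3 of 19 and lower in 1, and Herc6, the ligase that attaches Isg15 in mice, in 3 of 19. Bst2 and Parp14 were each called in 2 of 19 and Mx1 in 2 of 8.

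The sensors and the transcription factors were called in at most 3 classes each. Ddx58 was called in 0 of 19, Ifih1 (MDA5) in 1 of 16 and Dhx58 (LGP2) in 1 of 15. The sensor Zbp1 was called in 3 of 17 and the kinase Eif2ak2 (PKR) in 3 of 19. Stat2 and Irf9 were each called in 1 of 19 and Irf7 in 3 of 16. Stat2 was close to level in plasmacytoid DC-like cells, with 239 CPM in ND and 230 CPM in HFD (log2 ratio -0.06, interval -0.19 to 0.07). Trim30a was called in 0 of 19, although its ratio was 0.56 in mature neutrophil-like cells (interval 0.40 to 0.71), just under the fold. Ddx58 and Trim30a were the only members called higher in no class. The share of all genes called in at least 1 class was not counted, so this is not a result about the members.

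**Figure D3:**
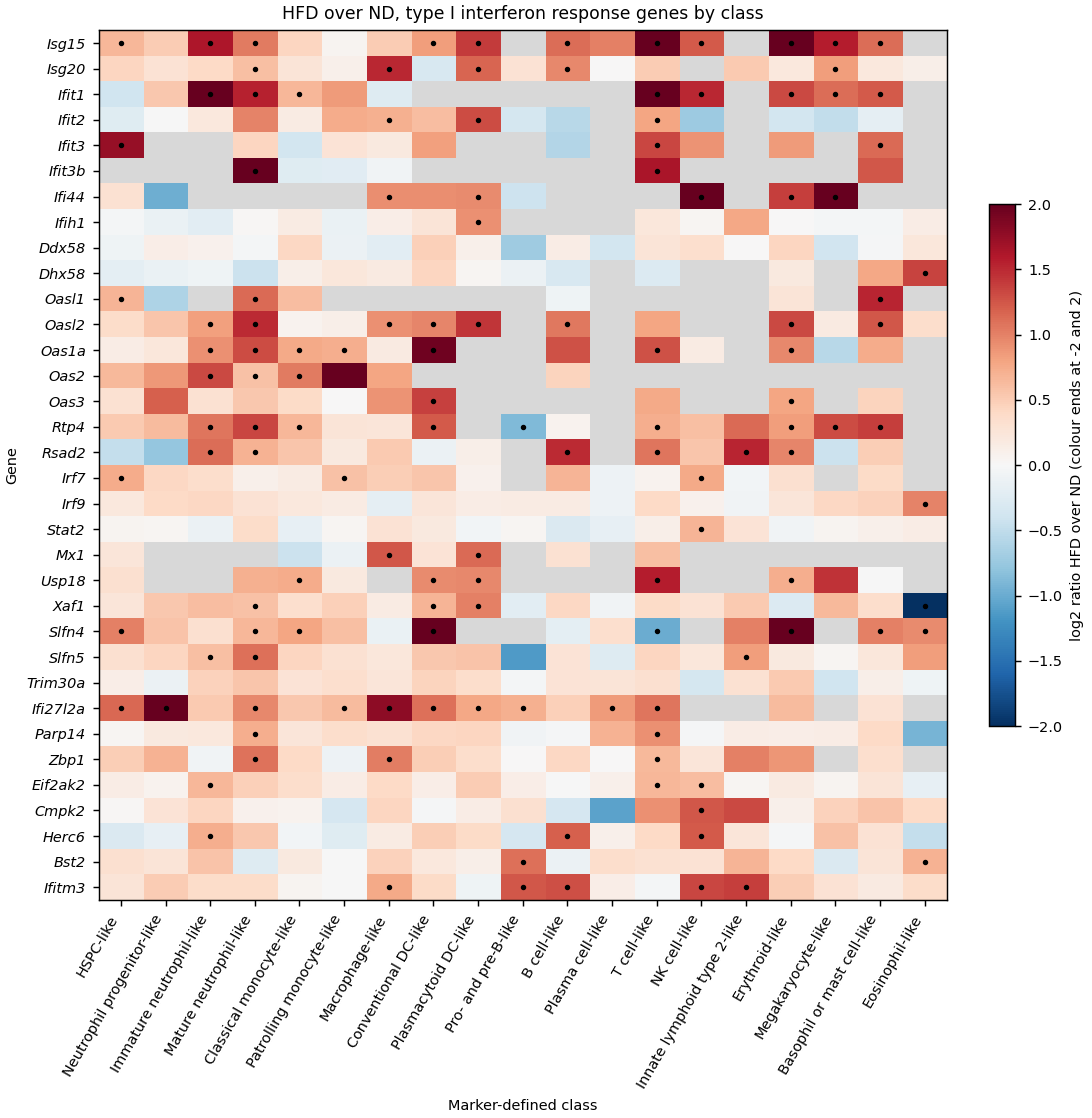
Log2 ratio of HFD over ND of the 34 members (rows) in 19 classes (columns), with pairs under 20 UMIs left blank. Isg15, Ifi27l2a and Oasl2 are above 0 in every class tested, while Stat2 and Ddx58 stay near 0 in most.

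Mature neutrophil-like cells, the last stage of the lineage in marrow, had 16 of 32 members tested higher and 0 lower, where 1.95% of all genes were higher and 3.13% lower. The median log2 ratio was 0.60 (interval over members 0.42 to 0.99). Ifit3b went from 23 UMIs (6.56 CPM) in 1160 cells to 161 UMIs (31.5 CPM) in 1846 cells, a log2 ratio of 2.27 (1.63 to 2.96). How reads were split between Ifit3b and its near-identical copy Ifit3 is uncertain, and Ifit3 was at most 1.74 in any class tested. Ifit1 went from 38 to 161 UMIs (10.8 to 31.5 CPM, 1.54, interval 1.02 to 2.09). Oasl2 went from 273 to 1114 UMIs (77.8 to 218 CPM, 1.49, interval 1.29 to 1.68), and the share of cells holding it went from 13.1% to 29.5%, or from 6.56% to 16.7% after thinning every cell to 1000 UMIs. Rtp4 went from 146 to 534 UMIs (41.6 to 105 CPM, 1.33). The lowest ratios were those of Dhx58 (62 and 67 UMIs, 17.7 and 13.1 CPM, -0.43, interval -0.95 to 0.09) and Bst2 (14 and 17 UMIs, 3.99 and 3.33 CPM, -0.26), neither past the rule.

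Slfn4 in these cells went from 3403 to 7868 UMIs, 970 to 1541 CPM, a log2 ratio of 0.67 (0.61 to 0.73). Both the share of thinned cells holding it, from 49.1% to 61.6%, and the UMIs per positive cell, from 1.83 to 2.54, were higher in the HFD library. The clusters that make up the class gave medians of 0.70 (14 of 31 members higher, 1.98% of all genes) and 0.60 (11 of 29, 2.34%). S100a8 and S100a9, the calprotectin genes abundant in neutrophil RNA, were level in this class at a log2 ratio of 0.01.

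Earlier neutrophil stages had fewer calls. In immature neutrophil-like cells 10 of 28 members were higher and 0 lower (2.11% and 2.08% of all genes), with a median of 0.45. Ifit1 rested there on 2 UMIs in 2 of 823 ND cells and on 54 UMIs in 22 of 1120 HFD cells (0.347 and 7.09 CPM, a log2 ratio of 4.35 with a wide interval of 2.43 to 7.44). Isg15 went from 18 to 73 UMIs (3.12 to 9.58 CPM, 1.62), Oas2 from 10 to 33 (1.73 to 4.33 CPM, 1.32) and Rsad2 from 33 to 95 (5.72 to 12.5 CPM, 1.12). Stat2 (192 and 233 UMIs, -0.12) and Ifih1 (108 and 123, -0.21) had the lowest ratios. Neutrophil progenitor-like cells had 1 of 30 members higher and 0 lower (1.55% and 1.74% of all genes), Ifi27l2a from 5 to 24 UMIs, and a median of 0.28. Next came Oas3 (8 and 20 UMIs, 1.19), Oas2 (7 and 14, 0.87) and Zbp1 (18 and 32, 0.70), and lowest were Rsad2 (25 and 16, -0.78) and Ifi44 (18 and 10, -0.98), all with intervals that held 0. The difference between the stages was not tested.

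Monocyte medians were 0.27 and 0.17. In classical monocyte-like cells 6 of 33 members were higher and 0 lower (1.8% and 1.66% of all genes) with a median of 0.27. Oas2 went from 15 to 43 UMIs (2.34 to 4.80 CPM, 1.03), Slfn4 from 65 to 158 (10.2 to 17.6 CPM, 0.79), Oas1a from 70 to 165 (10.9 to 18.4 CPM, 0.75) and Usp18 from 37 to 87 (5.78 to 9.70 CPM, 0.75). Thinned to 1000 UMIs, Slfn4 stood at -0.068 on the log2 scale in this class, and S100a8 and S100a9 together were 1.24 higher in it. Mx1 was below its ND level there (173 and 179 UMIs, 27.0 and 19.97 CPM, -0.44, interval -0.75 to -0.13), short of 1.5-fold, as was Ifit3 (86 and 93 UMIs, 13.4 and 10.4 CPM, -0.37, interval -0.81 to 0.07). Ifi27l2a was 1.45-fold higher, and the share of thinned cells with it went from 15.4% to 23.9%.

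Patrolling monocyte-like cells had 3 of 32 members higher, 9.38% beside 2.99% of all genes, 0 lower beside 3.11%, and a median of 0.17. Ifitm3, their leading member, was 1980 CPM in ND and 1964 CPM in HFD (-0.01, interval -0.07 to 0.05). Oas2 (2 and 19 UMIs, 2.02, interval -0.03 to 5.17), Ifit1 (9 and 38, 0.85) and Ifit2 (10 and 39, 0.74) were not called, while Oas1a was (25 and 97 UMIs, 16.0 to 26.5 CPM, 0.73, interval 0.08 to 1.43). Herc6 (43 and 85 UMIs, -0.24) and Cmpk2 (33 and 61, -0.34) were lowest.

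In HSPC-like cells, which hold stem and early progenitor cells, 6 of 33 members were higher and 0 lower (0.963% and 2.8% of all genes) and the median was 0.26. Ifit3 went from 14 to 49 UMIs (0.663 to 2.21 CPM, 1.74, interval 0.85 to 2.71), held by 11 of 1701 and 20 of 1680 cells. Those shares, 0.647% and 1.19%, had overlapping intervals (0.323 to 1.15 and 0.729 to 1.83). Its near-identical copy Ifit3b had 7 and 11 UMIs, too few to compare. Ifi27l2a went from 94 to 219 UMIs (4.45 to 9.87 CPM, 1.15), and 68 of 1701 ND cells against 157 of 1680 HFD cells held it, 3.998% and 9.35%. Slfn4 went from 29 to 61 UMIs (1.37 to 2.75 CPM, 1.00) and Irf7 from 63 to 111 (2.98 to 5.001 CPM, 0.74). Rsad2 (182 and 137 UMIs, 8.62 and 6.17 CPM, -0.48, interval -0.81 to -0.15) and Ifit1 (130 and 104, 6.16 and 4.69 CPM, -0.39, interval -0.78 to -0.01) were below their ND levels, short of the fold. The ratios of the IFIT genes Ifit3 and Ifit1 thus lay on either side of 0 in this class.

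Plasmacytoid DC-like cells had 10 of 25 members higher and 0 lower (2.01% and 1.99% of all genes) and a median of 0.43. Oasl2 went from 47 to 108 UMIs (10.6 to 28.5 CPM, 1.42), Isg15 from 36 to 81 (8.14 to 21.4 CPM, 1.39), Ifit2 from 25 to 53 (5.65 to 14.0 CPM, 1.31) and Isg20 from 22 to 42 (4.98 to 11.1 CPM, 1.16). The highest members of this class were nearly level: Bst2 stood at 827 and 900 CPM (0.12), Stat2 at -0.06 and Ifitm3 at -0.08 (179 and 145 UMIs). The class joined clusters 28 and 18, of which cluster 28 held most ND cells (364 and 353) and cluster 18 most HFD cells (334 and 297). Cluster 28 had 14 of 23 members higher (2.89% of all genes) and a median of 0.89, and cluster 18 had 6 of 22 (1.88%) and 0.27. Whether these differ was not tested.

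T cell-like cells had a median of 0.65, with 13 of 31 members higher (3.06% of all genes) and 1 lower (1.85%). Ifit1 went from 12 UMIs in 5 of 630 cells to 61 UMIs in 24 of 644 cells (5.24 to 25.8 CPM, 2.30, interval 1.39 to 3.33). Isg15 went from 15 to 73 UMIs (6.54 to 30.9 CPM, 2.24), held by 2.06% and 4.97% of cells. Ifit3b went from 5 to 16 UMIs (2.18 to 6.77 CPM, 1.64) and Usp18 from 13 to 40 (5.67 to 16.9 CPM, 1.58). The split of reads between Ifit3b and Ifit3 is uncertain here as well. Dhx58 was not called (14 and 12 UMIs, -0.27). Slfn4 was called lower (29 and 15 UMIs, 12.7 and 6.35 CPM, -0.99, interval -2.0 to -0.05), but it stood above 0, between 0.61 and 0.87, with no cell filter, a stricter cell filter, doublets kept or the interferon genes kept among the clustering genes.

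B and NK cells completed the lymphoid classes. In B cell-like cells 6 of 28 members were higher and 0 lower (2.06% and 2.04% of all genes), with a median of 0.27. Rsad2 went from 8 to 28 UMIs (3.43 to 9.65 CPM, 1.49), Ifitm3 from 18 to 55 (7.72 to 18.9 CPM, 1.30) and Herc6 from 19 to 54 (8.15 to 18.6 CPM, 1.19), while Oas1a was not called (5 and 15, 1.27, interval -0.26 to 3.08). Ifit2 (20 and 17 UMIs, -0.55) and Ifit3 (12 and 10, -0.58) were lowest, with intervals that held 0. In NK cell-like cells 9 of 23 members were higher and 0 lower (4.41% and 2.29% of all genes), with a median of 0.55 over 414 ND and 222 HFD cells. Ifi44 went from 5 to 17 UMIs (3.15 to 18.6 CPM, 2.56, interval 1.06 to 4.35), Ifit1 from 14 to 23 (8.82 to 25.1 CPM, 1.51), Ifitm3 from 20 to 29 (12.6 to 31.7 CPM, 1.33) and Cmpk2 from 22 to 30 (13.9 to 32.8 CPM, 1.24). Trim30a was below its ND level (159 and 125 CPM, -0.35, interval -0.69 to -0.03), short of the fold, and Ifit2 stood at -0.72 (20 and 7 UMIs, interval -2.20 to 0.58).

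The other classes had medians from -0.03 to 0.53. Conventional DC-like cells had 9 of 30 members higher and 0 lower, beside 2.4% and 1.64% of all genes, with a median of 0.50. Macrophage-like cells had 8 of 32 higher and 0 lower (3.53% and 2.23% of all genes), with a median of 0.35. Erythroid-like cells had 10 of 31 higher and 0 lower (3.24% and 1.18%), with a median of 0.43. Basophil or mast cell-like cells had 7 of 31 higher and 0 lower (1.71% and 1.65%), with a median of 0.38. Megakaryocyte-like cells had 5 of 23 higher and 0 lower (5.13% and 6.77%), with a median of 0.17, and innate lymphoid type 2-like cells 3 of 19 and 0 (4.5% and 2.16%), with a median of 0.53. Eosinophil-like cells had 4 of 17 higher (3.05%) and 1 lower, Xaf1 (2.95%), with a median of 0.22. In plasma cell-like cells 1 of 18 was higher and 0 lower (3.45% and 4.9%), and the share of members higher, 5.56%, was near that of all genes. Pro- and pre-B-like cells had 3 of 19 higher (2.9%) and 1 lower, Rtp4 (2.07%). The result for Rsad2 in erythroid-like cells depended on the average used. Its summed level went from 41.8 to 82.2 CPM (0.98), the mean over cells gave -0.12, and 18.6% and 21.3% of cells held it. The cause was not tested. Median depth in that class was 23312.5 UMIs in ND and 17723 in HFD.

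Whether a few cells or most of a class carried the difference was read from the summed member UMIs of each cell, after thinning every cell to 1000 UMIs. In mature neutrophil-like cells the whole distribution moved. The mean sum went from 2.56 to 4.22, the median from 2 to 3 and the 99th percentile from 13 to 27.6. Cells with at least 3 different members went from 21.8% to 37.2%, and cells with at least 5 from 51 of 1159 (4.4%) to 233 of 1840 (12.7%). With Slfn4, Bst2 and Ifitm3 left out of the sum, the log2 ratio of the means was 0.79 over all cells and 0.86 both without the top 5% and without the top 10% of cells in each library.

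In some other classes leaving out the top cells lowered the ratio more. In T cell-like cells the log2 ratio of means was 0.68 over all cells and 0.52 without the top 5%, over the same 31 members. Over these 31 members the 99th percentile of the sum went from 4 to 12.7 and the median from 0 to 1. Cells with at least 1 of them went from 49.9% to 60.8%, so the lower part of the distribution moved as well. With all 34 members the median stayed at 1. Cells with at least 5 of the 34 went from 5 of 629 to 20 of 643 (0.795% to 3.11%). NK cell-like cells went from 0.40 to 0.22 without the top 5%, innate lymphoid type 2-like cells from 0.57 to 0.39, erythroid-like cells from 0.58 to 0.43, plasmacytoid DC-like cells from 0.49 to 0.40 and immature neutrophil-like cells from 0.29 to 0.20. In megakaryocyte-like cells, with 136 and 103 cells, the ratio was 0.27 over all cells and 0.05 without the top 5%, and thinned to 2000 UMIs these were 0.017 and -0.30. Ratios of HSPC-like cells (0.22 and 0.18), macrophage-like cells (0.36 and 0.37) and classical monocyte-like cells (0.31 and 0.39) did not shrink in this way, apart from a small drop in the first. Thinning to 2000 UMIs gave 0.063 and 0.19 in macrophage-like cells and 0.44 and 0.37 in immature neutrophil-like cells. In mature neutrophil-like cells it gave 0.64 and 0.60. In conventional DC-like cells the ratio was 0.57 over all cells and 0.63 without the top 5%.

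**Figure D4:**
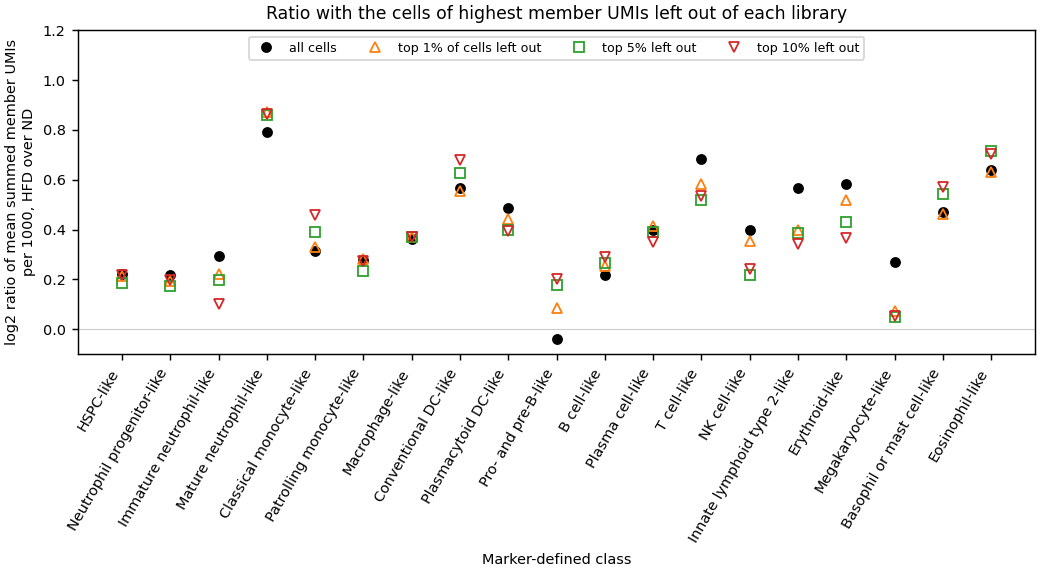
Log2 ratio of the mean summed member UMIs per 1000, HFD over ND, for each class, over all cells and with the top 1%, 5% or 10% of cells by that sum left out of each library; Slfn4, Bst2 and Ifitm3 are not in the sum. The ratio of mature neutrophil-like cells stays between 0.79 and 0.87, and that of megakaryocyte-like cells falls from 0.27 to 0.05.

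The share of cells with at least 5 different members depends on the depth of thinning. At 2000 UMIs it went from 13.1% to 24.3% in mature neutrophil-like cells and from 20.1% to 27.9% in classical monocyte-like cells. Thinned to 1000 UMIs, such cells were at most 12.7% of a class in either library. They went from 2.37% to 6.81% in plasmacytoid DC-like cells, from 0.966% to 3.60% in NK cell-like cells, from 1.89% to 3.97% in patrolling monocyte-like cells, from 0.486% (4 cells) to 1.43% (16 cells) in immature neutrophil-like cells and from 1.86% to 4.85% in macrophage-like cells, of which 694 and 591 were too shallow to thin and were left out. Classical monocyte-like cells started higher, at 8.26%, and reached 10.9%. HSPC-like cells had 9 such cells of 1700 in ND and 19 of 1679 in HFD. Basophil or mast cell-like cells had 17 of 1444 and 15 of 1397, so their higher median of 0.38 came with no more such cells. Cells with many members were therefore found on ND as well as on HFD in each of these classes.

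**Figure D5:**
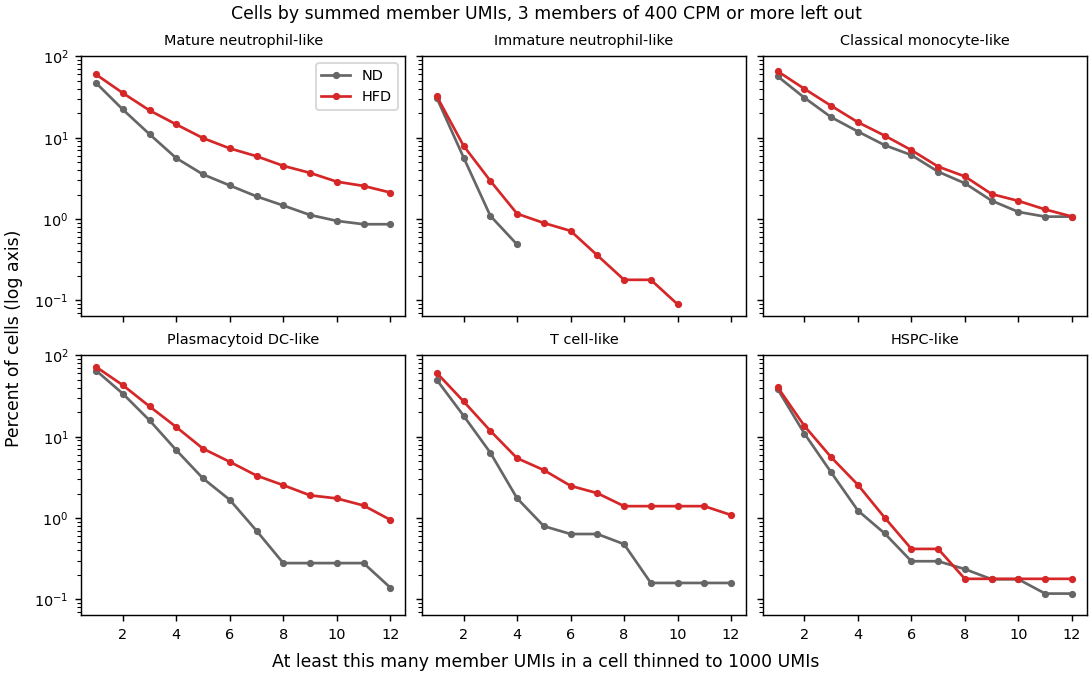
Percent of cells (log axis) with at least a given number of member UMIs after thinning to 1000 UMIs per cell, for ND (grey) and HFD (red) in 6 classes; Slfn4, Bst2 and Ifitm3 are not in the sum. In mature neutrophil-like cells the curves are apart from the first UMI on (47.2% and 60.0% of cells), while in immature neutrophil-like cells they start at 30.7% and 32.2% and stand at 5.71% and 7.95% for 2 UMIs and at 1.09% and 2.95% for 3.

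The rest of the pathway gave fewer calls than its response genes. Of 18 type I interferon genes, 5 were in the tables, with 18 UMIs in ND and 6 in HFD over all cells, which is too few to compare classes. Ifng, the type II interferon made by T and NK cells, had 103 and 95 UMIs over all cells. Its log2 ratio was 0.65 in T cell-like and 0.07 in NK cell-like cells, and it was called in neither. Ifnar1, Ifnar2, Jak1 and Stat3 were called in 0 of 19 classes each, Tyk2 in 1, and Irf1 higher in 1 and lower in 1. Over all gene and class pairs 2.69% were higher and 2.48% lower, so calls this few are not a result about these genes.

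A wider list of other interferon-stimulated genes had 105 of 1304 pairs higher (8.05%) and 24 lower (1.84%), beside 2.69% and 2.48% over all gene and class pairs. A list of genes that lean to interferon gamma had 51 of 246 higher (20.7%) and 7 lower (2.85%). Nucleic acid sensing and induction genes had 17 of 402 higher (4.23%) and 5 lower (1.24%), and feedback inhibitors 7 of 193 (3.63%) and 1 (0.518%). The shares higher of these 2 lists were closer to the 2.69% of all pairs than to the members' 25.2%. Their shares lower were under the 2.48% of all pairs. Socs1, which blocks Jak kinases, made up 3 of the 7 feedback inhibitor pairs called higher. Tspo, a mitochondrial outer membrane protein on the wider list, was higher in 18 of 19 classes.

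Other RNA also differed between the libraries, not always in the same classes as the members, and its part in the results was not tested. The heat-shock genes Hspa1a and Hspa1b, known to be induced by stress and handling, were higher in the HFD library in 17 of 17 and 19 of 19 classes, with a summed log2 ratio from 2.25 to 4.93. They are on a handling-stress list of 16 genes, which had 56 of 278 pairs higher (20.1%) and 13 lower (4.68%) in all. Over all gene and class pairs the shares were 2.69% and 2.48%. The calls of Hspa1a and Hspa1b, in 17 and 19 classes, are among those 56. On that list Egr1 was lower in 6 classes and higher in 1, Egr2 lower in 4 of 8, and Fosb higher in 2 and lower in 2. S100a8 and S100a9 were also higher together in other classes, by up to 1.77 in macrophage-like and Pro- and pre-B-like cells, 1.59 in eosinophil-like, 1.42 in conventional DC-like and 1.04 in erythroid-like cells, and were lower in plasma cell-like (-1.86) and megakaryocyte-like cells (-1.37). The summed level of 18 mature neutrophil markers outside the neutrophil classes ran from 96.4 to 3783 CPM in ND and from 200.1 to 4898 CPM in HFD, highest in eosinophil-like cells in both. Of these markers, none was at 0 in T cell-like cells of the HFD library and 1 was at 0 in ND, and their summed log2 ratio was 0.06 there. Over the classes it ran from -0.14 in megakaryocyte-like and NK cell-like cells to 0.69 in plasma cell-like and 1.52 in Pro- and pre-B-like cells, and it was 0.45 in B cell-like, 0.44 in erythroid-like, 0.41 in plasmacytoid DC-like, 0.37 in eosinophil-like and 0.33 in conventional DC-like cells. Slfn4, a gene of neutrophils in these libraries, was called higher in 7 of 15 classes, and per 1000 S100a8 and S100a9 UMIs it stood at 6.52 and 10.3 in mature neutrophil-like cells, 5.50 and 18.9 in conventional DC-like cells and 4.79 and 10.8 in erythroid-like cells, ND first. That quotient was also higher in HFD in HSPC-like (13.5 and 21.0) and basophil or mast cell-like cells (12.3 and 16.3), where Slfn4 was called higher too. It was higher as well in Pro- and pre-B-like (5.99 and 15.8), plasma cell-like (2.16 and 9.86), NK cell-like (3.03 and 8.65) and innate lymphoid type 2-like cells (8.39 and 13.9). The neutrophil progenitor-like (1.94 and 2.17) and immature neutrophil-like cells (3.06 and 3.71) followed. The same quotient was lower in HFD in classical monocyte-like (28.5 and 21.0) and eosinophil-like cells (14.2 and 9.05), where Slfn4 was also called higher, in patrolling monocyte-like (27.3 and 26.9) and megakaryocyte-like cells (7.67 and 5.13), and in T cell-like (55.9 and 15.8), macrophage-like (29.9 and 8.04), B cell-like (14.4 and 7.12) and plasmacytoid DC-like cells (11.9 and 4.37).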

How the data were processed

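The authors deposited 1 table of counts per library, RSEC-corrected UMIs for each cell and gene. Per the file headers, version 1.9.1 of the BD WTA Rhapsody pipeline made it on a custom reference, whose build is not given in the sources used here. The 34 members and the gene lists were chosen with earlier results of these data known. Genes were matched by symbol. Cells under 200 genes or over 25% mitochondrial UMIs were dropped, doublets were called per library with Scrublet (expected share 5%; 412 and 436 removed), and both libraries were clustered together with scanpy 1.11.5 (10000 UMIs per cell, log, 2000 variable genes without the interferon genes, 30 components, 15 neighbours, Leiden resolution 1). A cluster was named when at least 3 markers of a class were among its top 50 genes by fold. Class sums gave CPM and log2 ratios with exact conditional binomial 95% intervals; a count of 0 stood at 3 UMIs. Shares have Clopper-Pearson intervals. Calls need 20 UMIs in both libraries together, a 1.5-fold ratio and an interval without 0. Intervals treat UMIs as independent, although cells share them unevenly, and cover counting error only. The interval of a class median is instead an order-statistic 95% interval over members taken as independent. Cells were thinned to 1000 UMIs for shares and sums. In each class described in detail, the members named are the 4 with the highest and 2 with the lowest ratios. The ratio step was tested on simulated data. The 5 antibody tags were not used here. One gene of the signalling list is not reported here.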

Additional observations from a re-analysis of the deposited data

Results flagged for a closer look

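Members that were lower in 1 class and higher in others numbered 3, and in each case the difference between classes was not tested. Rtp4 was lower in Pro- and pre-B-like cells (29 and 21 UMIs, a log2 ratio of -0.88, interval -1.76 to -0.02) and higher in 8 other classes. Xaf1 was lower in eosinophil-like cells (16 and 4 UMIs, -2.06, interval -4.10 to -0.43), where median depth was 2549 UMIs in ND and 1686 in HFD, and higher in 3 other classes. Slfn4 was lower in T cell-like cells (29 and 15 UMIs, -0.99, interval -2.0 to -0.05) and higher in 7 other classes.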

How the results depend on the processing

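With 1 library per diet, no library could be left out. No paired analysis was possible because each diet has a single library. The class medians were above 0 in 18 or 19 of 19 classes under every alternative run (18 of 18 at Leiden resolution 0.5, where Pro- and pre-B-like cells were not found as a class). The members' median moved in immature neutrophil-like cells to 0.29 with the interferon genes kept among the clustering genes, 0.32 with no filter on cells and 0.29 with cells thinned to 1000 UMIs, in conventional DC-like cells to 0.84 with no filter, in Pro- and pre-B-like cells to 0.45 (5 members) when thinned, in innate lymphoid type 2-like cells to 0.14 with no filter and 0.0031 (3 members) with at least 100 UMIs, and in basophil or mast cell-like cells to 0.22 as a mean over cells. The highest class median was that of mature neutrophil-like cells under 6 settings, and of conventional DC-like cells under 3 and T cell-like cells under 3 (the reported setting included). Counts of members higher in a class moved by over 1.5 times in 50 cases and stayed within that in 165, with a range of 2 to 19 in conventional DC-like, 0 to 11 in immature neutrophil-like, 0 to 10 in NK cell-like, 0 to 7 in patrolling monocyte-like and 13 to 17 in mature neutrophil-like cells. Pairs called higher numbered 52 of 296 when thinned and 67 of 310 with at least 100 UMIs, where fewer pairs were tested. Pairs called lower numbered 8 as a mean over cells, 0 when thinned, 0 with at least 100 UMIs and 6 with at least 1 UMI. The log2 ratio of the share of cells with at least 5 in place of 3 members was 1.10 in HSPC-like, 1.56 in immature neutrophil-like, 1.52 in mature neutrophil-like, 1.07 in patrolling monocyte-like, 1.52 in plasmacytoid DC-like, 1.97 in T cell-like and 1.9 in NK cell-like cells. Without the top 5% of cells, the ratio of mean sums was 0.34 in HSPC-like and 0.12 in plasmacytoid DC-like cells with doublets kept, and 0.57 in mature neutrophil-like cells thinned to 2000 UMIs, where the share ratio was 0.40. Added once the data had been seen, a sum without Slfn4, Bst2 and Ifitm3 dropped the members of 400 CPM or more in a class of the ND library. The ratio of mean sums without the top 5% was then 0.20 in immature neutrophil-like, 0.86 in mature neutrophil-like, 0.39 in classical monocyte-like, 0.23 in patrolling monocyte-like and 0.40 in plasmacytoid DC-like cells, and the share ratio with at least 3 members was 2.08 in immature and 1.08 in mature neutrophil-like cells. Reversed were Slfn4 in classical monocyte-like cells (-0.068, thinned) and in T cell-like cells (0.87 with the interferon genes kept, 0.87 with no filter, 0.80 with the stricter filter, 0.61 with doublets kept), Eif2ak2 in T cell-like cells (-0.032, thinned), Ifitm3 in innate lymphoid type 2-like cells (-0.081, no filter), and Rsad2 in erythroid-like cells (-0.12) and Ifit1 in megakaryocyte-like cells (-0.45) as a mean over cells. For these the cause was not tested. Of the other values for a called member, 1471 kept their direction within the interval and 41 moved. Members with under 20 UMIs in a class could not be compared at this depth.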
